A study of Mus musculus with 6 samples.

Results

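The genes described here encode the moving parts of motile cilia: 42 of the 32531 gene rows counted in every library. They were chosen by name, as the axonemal dynein heavy chains (Dnah), dynein intermediate chains (Dnaic1, Dnaic2) and the light intermediate chain Dnali1, radial spoke proteins (Rsph), Spag6, Spag16, Spag17 and Hydin of the central pair, tektins (Tekt1 to Tekt5), 6 coiled-coil proteins (Ccdc39, Ccdc40, Ccdc113, Ccdc114, Ccdc151, Ccdc153), and the ependymal genes Tmem212, Sntn and Rarres2. RNA came from the hypothalamus of untreated adult mice of the line Lhx5-TRAP DT154, in which the transgene Lhx5-EGFP-Rpl10a puts an EGFP tag on ribosomal protein L10a under control of Lhx5, and no other line was used. In translating ribosome affinity purification (TRAP), antibodies to EGFP pull down the tagged polysomes with the RNA on them. There were 3 libraries of this immunopurified RNA (IP) and 3 of the unbound RNA, which the sample titles call input. All 6 carry the transgene and none is from an untagged mouse, so RNA held by the beads without the tag was not measured here. The labels do not say that replicates came from separate animals, so p-values measure the spread between these libraries, which may be technical.

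Motile cilia beat because dynein arms, fixed in rows along the outer microtubule doublets, slide one doublet past the next. Radial spokes and the central pair of microtubules set the order in which the arms fire, and ruler and docking proteins set where arms and spokes attach. In the brain these cilia belong to the ependymal cells that line the ventricles, the third ventricle of the hypothalamus among them, and neurons carry a single cilium that does not beat.

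The motile cilia genes did not move as one set. Of the 40 that passed the count filter, 16 were lower in IP and 5 were higher at an adjusted p under 0.05 (edgeR quasi-likelihood, Benjamini-Hochberg adjustment over the 16991 genes tested), and 19 were not called. Among the tested members 40% were lower and 12.5% higher, while of all genes tested 44.3% were called, 23.2% as lower and 21.1% as higher. The genes that fell were Dnah6, Dnah7b, Dnah9, Dnah11, Dnah12, Dnaic1, Dnali1, Spag16, Spag17, Hydin, Ccdc39, Ccdc114, Ccdc153, Tmem212, Sntn and Rarres2, and 11 of them were at least 4-fold lower. The genes that rose were Tekt5, Dnah1, Rsph9, Dnah7a and Ccdc40, by 2.02-fold to 2.48-fold. The median log2 fold change, IP over unbound, was -0.58 over the tested members and -0.01 over all tested genes. Every IP library lay below every unbound library for 21 tested members, above for 10, with overlap for 9, while 28.7% of all tested genes lay below and 27.1% above. Dnah14 and Tekt3 had too few counts to be tested.

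The number of falls depended on which libraries were kept. Without unbound replicate 1, 8 members were lower (20% of those tested, against 18.7% of all genes), and without unbound replicate 2, 9 were (22.5% against 19.1%). Leaving out 1 library ended the call of 8 of the 16 falls: of Ccdc39 and Spag17 in 5 of the 6 fits, of Ccdc114, Dnah6 and Dnah12 in 4, of Dnah11 and Rarres2 in 3 and of Hydin in 2. Both fits named above were among these for every one of the 8, except that Hydin passed without unbound replicate 2. Under scaling on pan-neuronal markers the median of all genes was -0.53, and 20 members were lower and 2 higher, with 6946 and 853 among all genes. These were 50% and 5% of the members tested, against 40.9% and 5.02% of all genes. Ccdc40, Dnah1 and Rsph9 then no longer passed, though all 5 rises kept their sign. With the replicate number as a block, Dnah6, Dnah11, Dnah12 and Rarres2 no longer passed (adjusted p = 0.0737, 0.0517, 0.0583 and 0.0714, edgeR with the block), while Tekt2 passed as higher (0.0252) and Tekt4 as lower (0.0478). That fit gave 32.5% of members lower and 15% higher, against 23.6% and 23.3% of all genes.

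**Figure D1:**
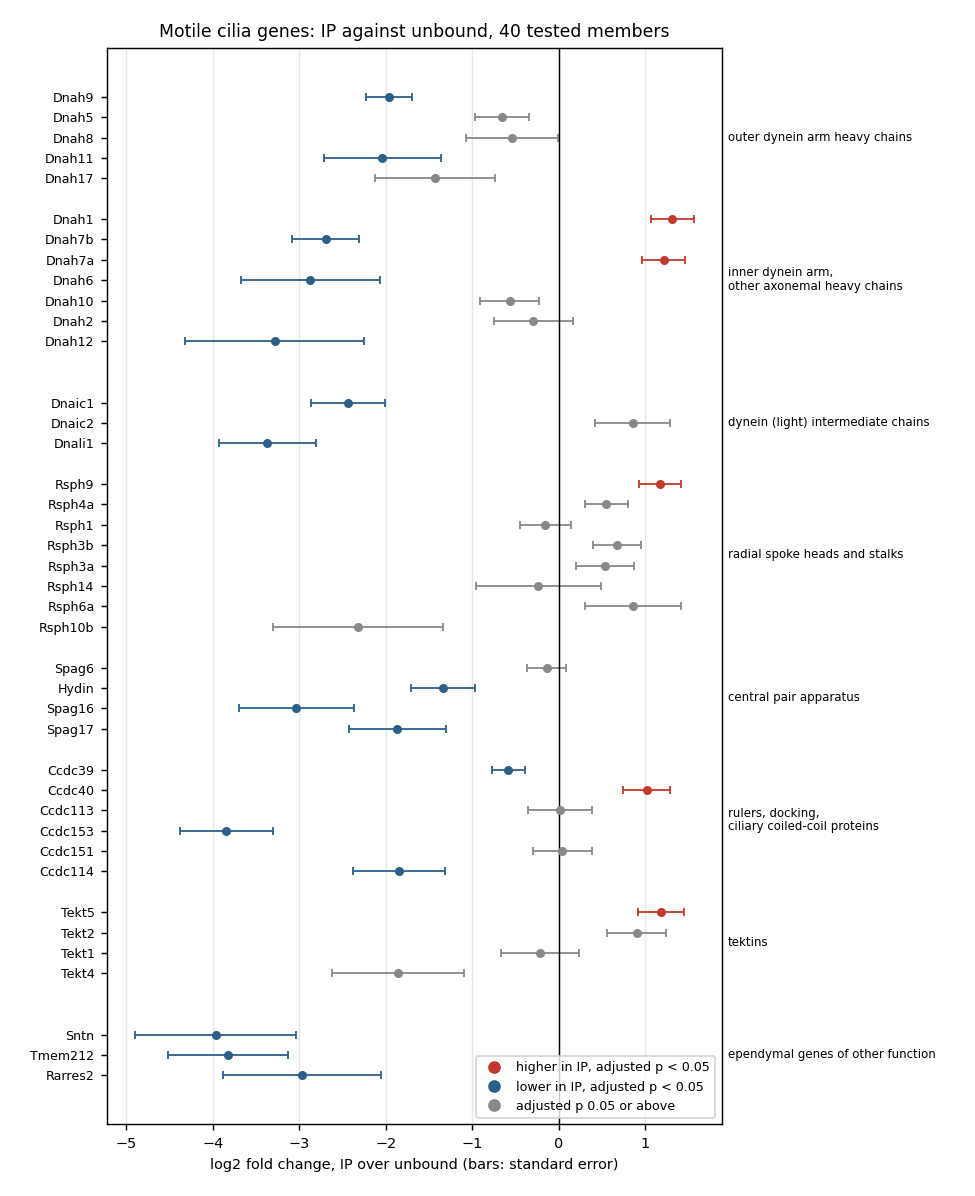
Log2 fold change, IP over unbound, of the 40 tested motile cilia genes by role, from the edgeR fit to 3 IP and 3 unbound libraries. Bars are standard errors. The 5 rises lie between 1.02 and 1.31, while the 16 falls reach -3.97 for Sntn.

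The libraries held 32471045 to 46293837 gene counts in IP and 32926146 to 40768577 in unbound RNA. Lhx5, the driver gene, stood at 56.7, 58.1 and 70.5 CPM in IP libraries 1 to 3, against 2.03, 1.86 and 6.28 CPM in unbound libraries 1 to 3. CPM are read counts scaled to a common library total after TMM scaling, which corrects for differences in RNA composition between libraries, and values below follow the same order of replicates. Differences given after them with an SE are log2 fold changes, IP over unbound. Unbound replicate 3 stood apart in choroid plexus genes, whose summed level was 268, 444 and 134 CPM in IP and 2648, 2881 and 309 CPM in unbound libraries. For 23 of the 42 motile cilia genes unbound replicate 3 lay below both other unbound libraries, and for 11 it lay above both. These counts were not made over all genes, so they cannot be told apart from a trait of that library as a whole. Without it, 15 members were lower and 5 higher (37.5% and 12.5% of those tested, against 25.8% and 24% of all genes). In bulk RNA, fewer cells of a type and less RNA per cell cannot be told apart.

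Ependymal genes as a group were lower in IP. Of 10 ependymal markers (4 of them also motile cilia genes), 8 fell (80%, against 23.2% of all genes), with a median log2 fold change of -3.08. The summed level of the 10 was 18.8, 16.8 and 17.7 CPM in IP against 63.4, 52.8 and 47.5 CPM in unbound libraries. Cd24a and Mia, the other 2, were not called. In a wider list of 13 ependymal markers, which shares some of these, 10 fell (76.9%). One that fell, Aqp4, is also among the astrocyte markers counted below, so this list is not of ependymal genes alone. Nnat, also an abundant gene of neurons, rose, at 633, 618 and 515 CPM in IP against 317, 221 and 312 CPM in unbound libraries. Sntn encodes sentan, a protein of the ciliary tip. It had 0.119, 0.129 and 0.0222 CPM in IP, against 1.93, 2.03 and 0.264 CPM in unbound libraries, so that the groups did not overlap but unbound replicate 3 was far below the other two. Sntn fell by 3.97 ± 0.93 on the log2 scale (SE; edgeR adjusted p = 0.00865), on 10 counts in all IP libraries together. Tmem212, a membrane protein gene used to mark ependymal cells, had 0.0475, 0.0321 and 0.155 CPM in IP and 1.65, 1.05 and 0.911 CPM in unbound libraries. All unbound libraries were far above all IP libraries, with a log2 fold change of -3.83 ± 0.69 (edgeR adjusted p = 0.00261). Rarres2, which encodes the secreted protein chemerin and is no part of a cilium, had 0, 0.257 and 0.155 CPM in IP and 1.70, 0.784 and 0.695 CPM in unbound libraries. It was lower at -2.97 ± 0.91 (edgeR adjusted p = 0.0272), but 33.6% of its exon bases overlap Lrrc61 on the opposite strand. Whether counting used strand is not stated, so reads of overlapping genes cannot be told apart. Because 5 members were higher in the RNA where these ependymal markers were lower, the 42 genes are called motile cilia genes here and not ependymal genes.

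Among the regulators that switch on the motile cilium programme, more were lower than higher. Of 15 tested regulators of multiciliation, 7 fell (46.7%) and 2 rose (13.3%), against 23.2% and 21.1% of all genes, with a median log2 fold change of -0.90. The other 6, Mcidas, Gmnc, Ccno, E2f4, Tfdp1 and Ulk4, were not called. Mcidas, Gmnc and Ccno lay at -0.18, -2.15 and -0.90. From 5 to 8 regulators fell when 1 library was left out, and 4 with replicates 1 and 3 alone, which shared a lane. Foxj1, the forkhead factor that drives genes for motile cilia, had 4.11, 5.56 and 4.11 CPM in IP and 9.82, 7.03 and 12.2 CPM in unbound libraries. The groups did not overlap, at -1.08 ± 0.26 (edgeR adjusted p = 0.00954). Rfx1, Rfx2, Rfx3 and Rfx4, of the RFX factors that bind promoters of ciliary genes, E2f5 and Myb also fell, by between 0.85 for Rfx1 and 2.52 for Rfx4 on the log2 scale. The 2 rises were Trp73, a p53 family factor of multiciliated cells that is also made in some neurons, and Ccdc67 (Deup1), part of the structure on which centrioles multiply. Trp73 had 7.55, 10.8 and 8.33 CPM in IP against 1.83, 1.13 and 1.13 CPM in unbound libraries, higher by 2.70 ± 0.30 on the log2 scale (edgeR adjusted p = 0.000320). Ccdc67 had 6.96, 7.58 and 6.80 CPM in IP and 2.71, 1.10 and 2.83 CPM in unbound libraries, at 1.68 ± 0.35 (edgeR adjusted p = 0.00519). Both thus went against the 7 that fell.

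Promoter sequences (RefSeq, GRCm38.p6, 250 bases before to 50 after the annotated start) were found for 38 of the 42 genes and searched on both strands for an RFX half-site, the full RFX X-box and a forkhead motif, with no mismatch. The other 4 are Rarres2, Rsph1, Rsph4a and Rsph10b. The half-site GTTGCC was in 14 of 38 promoters (36.8%), against 14.1% of 27025 genes. It was in 5 of 15 promoters of genes that fell, 1 of 5 of genes that rose and 8 of 16 of genes not called. The forkhead motif GTAAACA was in 3 of the 38 (7.89%, against 4.05% of genes) and the X-box in 1, Spag16 (2.63%, against 1.10%). The X-box was matched strictly, as GTNRCC, a gap of at most 3 bases and RGYAAC (N any base, R A or G, Y C or T). Near forms such as gttgcttagcaac were not counted, so the count of 1 holds for this pattern only. A half-site can be part of an X-box, as in Spag16. A match describes letters in this window and shows no binding. The first 3 sequences belong to genes with large falls, and Dnah7a and Dnah7b are sister genes that went opposite ways. They are printed 5′ to 3′ on the gene's strand with matches in capitals.
Spag16, chr1:69826720-69827019, plus strand: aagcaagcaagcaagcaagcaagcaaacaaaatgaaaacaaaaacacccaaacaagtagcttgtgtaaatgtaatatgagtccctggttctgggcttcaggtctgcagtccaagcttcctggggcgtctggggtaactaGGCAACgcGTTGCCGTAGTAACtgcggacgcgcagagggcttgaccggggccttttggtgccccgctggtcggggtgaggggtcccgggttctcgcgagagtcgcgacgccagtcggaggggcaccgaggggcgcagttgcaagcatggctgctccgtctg
Sntn, chr14:13670626-13670925, plus strand: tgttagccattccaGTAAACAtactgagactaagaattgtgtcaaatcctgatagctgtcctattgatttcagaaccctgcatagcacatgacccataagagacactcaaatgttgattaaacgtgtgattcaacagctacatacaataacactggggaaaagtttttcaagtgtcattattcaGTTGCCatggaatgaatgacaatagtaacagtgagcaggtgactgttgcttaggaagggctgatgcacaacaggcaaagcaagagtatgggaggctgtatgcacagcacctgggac
Ccdc153, chr9:44240427-44240726, plus strand: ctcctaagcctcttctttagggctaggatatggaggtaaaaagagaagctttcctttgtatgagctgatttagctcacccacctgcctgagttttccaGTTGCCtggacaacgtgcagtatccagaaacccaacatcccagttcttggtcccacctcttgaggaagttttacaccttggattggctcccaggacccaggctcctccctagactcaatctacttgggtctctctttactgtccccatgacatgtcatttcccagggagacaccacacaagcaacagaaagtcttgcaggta
Dnah7a, chr1:53706735-53707034, minus strand: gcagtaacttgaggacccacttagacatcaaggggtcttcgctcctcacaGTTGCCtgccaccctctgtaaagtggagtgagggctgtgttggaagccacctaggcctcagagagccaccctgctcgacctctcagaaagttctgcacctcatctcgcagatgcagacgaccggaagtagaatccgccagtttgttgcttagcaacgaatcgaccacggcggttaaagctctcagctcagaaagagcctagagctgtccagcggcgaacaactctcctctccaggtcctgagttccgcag
Dnah7b, chr1:46066603-46066902, plus strand: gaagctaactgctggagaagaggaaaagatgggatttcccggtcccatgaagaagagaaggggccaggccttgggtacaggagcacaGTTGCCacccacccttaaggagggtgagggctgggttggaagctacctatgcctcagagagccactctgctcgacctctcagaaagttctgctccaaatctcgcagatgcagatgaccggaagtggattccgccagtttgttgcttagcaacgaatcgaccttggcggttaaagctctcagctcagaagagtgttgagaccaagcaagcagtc
In Spag16 the capitals are a half-site at -111, counted from the start as 0, and the X-box at -103, which begins with a second half-site. In Sntn they are GTAAACA at -236 and the half-site at -66. The half-site lies at -152 in Ccdc153, at -200 in Dnah7a and at -163 in Dnah7b, so these sister genes share it and were called in opposite directions. Dnah7a and Dnah7b also share gttgcttagcaac, left in lower case because it lies outside the X-box pattern.

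Outer dynein arms supply most of the beating force. Of their 5 heavy chain genes, 2 were lower (40%, against 23.2% of all genes) and the other 3 were not called. The summed level of the 5 was 5.05 ± 0.83 CPM in IP and 13.2 ± 1.11 CPM in unbound libraries (mean ± SD, n = 3 each). Dnah9 encodes an outer arm heavy chain and had 1.66, 1.96 and 1.64 CPM in IP, against 8.17, 7.0 and 5.42 CPM in unbound libraries. Every unbound library was well above every IP library, a log2 fold change of -1.97 ± 0.26 (edgeR adjusted p = 0.000728). Dnah11, another outer arm heavy chain gene, had 0.665, 0.0643 and 0.533 CPM in IP and 1.93, 2.06 and 1.34 CPM in unbound libraries, at -2.04 ± 0.67 (edgeR adjusted p = 0.0358). Dnah5, whose heavy chain pairs with these, had 1.52, 1.57 and 2.0 CPM in IP and 2.53, 2.62 and 2.90 CPM in unbound libraries. Its groups did not overlap, but the difference of -0.66 ± 0.31 did not pass (edgeR adjusted p = 0.115). Dnah8 and Dnah17, best known from sperm tails, were not called, at -0.54 and -1.43. Dnah8 had 1.21, 0.450 and 1.42 CPM in IP and 1.35, 0.988 and 2.18 CPM in unbound libraries, with overlap between groups.

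The intermediate chains anchor the outer arms. Dnaic1 had 0.356, 0.932 and 0.689 CPM in IP against 3.68, 2.85 and 4.17 CPM in unbound libraries, at -2.44 ± 0.43 (edgeR adjusted p = 0.00229). Dnaic2, its partner in the arm, had 2.09, 2.67 and 3.29 CPM in IP and 1.6, 0.755 and 2.09 CPM in unbound libraries. The lowest IP and the highest unbound library were nearly equal, and the difference was 0.85 ± 0.43, which did not pass (edgeR adjusted p = 0.138). Dnali1, the light intermediate chain of inner arms, had 0.428, 0.482 and 0.133 CPM in IP and 4.91, 3.72 and 2.09 CPM in unbound libraries. It fell by 3.37 ± 0.56 on the log2 scale (edgeR adjusted p = 0.00180).

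Inner dynein arms shape the bend of the beat, and their 8 heavy chain genes were split. Among the 7 tested, 3 fell (42.9%) and 2 rose (28.6%), against 23.2% and 21.1% of all genes. The summed level of the 8 was 39.2 ± 4.63 CPM in IP and 33.3 ± 2.10 CPM in unbound libraries (n = 3 each). Dnah1, an inner arm heavy chain gene, had 26.2, 25.4 and 31.2 CPM in IP against 15.4, 9.91 and 8.03 CPM in unbound libraries. All IP libraries were above all unbound libraries, at 1.31 ± 0.25 (edgeR adjusted p = 0.00311; 0.0599 with pan-neuronal scaling). Dnah7a had 6.46, 4.88 and 7.11 CPM in IP and 2.48, 2.53 and 2.97 CPM in unbound libraries, at 1.21 ± 0.25 (edgeR adjusted p = 0.00507). Dnah7b, its near copy on the same chromosome, had 1.52, 1.67 and 1.07 CPM in IP and 5.99, 7.09 and 14.4 CPM in unbound libraries, at -2.70 ± 0.39 (edgeR adjusted p = 0.000938). Of the 50-base windows in Dnah7a transcripts, 38.6% also occur in other genes, and 29.4% in Dnah7b. Of those in Dnah7b transcripts, 30% also occur in other genes, and 23.6% in Dnah7c. Reads with several places to align were counted for none of these genes. Over whole libraries, the entry for several alignments made up 43.8% to 45.0% of all deposited counts, summary entries included, in IP. In unbound libraries it made up 31.8% to 32.9%. How much of it belongs to Dnah7a or Dnah7b is not known, so the levels of both genes are uncertain.

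Dnah6 had 0.214, 0.386 and 1.47 CPM in IP against 6.41, 7.47 and 1.61 CPM in unbound libraries. In the third libraries of both groups it was at nearly the same level, and the fall of 2.88 ± 0.80 on the log2 scale (edgeR adjusted p = 0.0211) rests on the others. Dnah12 had 0.119, 0 and 0 CPM in IP and 0.326, 0.523 and 0.456 CPM in unbound libraries, at -3.29 ± 1.04 (edgeR adjusted p = 0.0300). With 5 counts in IP, the value ran from -7.07 to -2.65 when 1 library was left out, and it passed only without IP replicate 1 or unbound replicate 3. Dnah14 had 0 counts in each IP library and 8, 10 and 4 in the unbound libraries. Its mean unbound level was 7.71 times the level of 3 counts, which a total of 0 allows over the IP libraries. That covers counting error in IP alone, not in the unbound counts, and no test was made. Dnah2 and Dnah10, the heavy chains of the inner arm with a pair of heads, were not called, at -0.30 and -0.57.

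Radial spokes pass signals from the central pair to the dynein arms, and 1 of their 8 genes rose (12.5%) while the other 7 were not called. Of all genes tested, 21.1% rose and 23.2% fell. Rsph9, a spoke head gene, had 18.5, 18.6 and 12.9 CPM in IP against 9.50, 6.86 and 5.83 CPM in unbound libraries. The groups did not overlap, at 1.17 ± 0.24 (edgeR adjusted p = 0.00475; 0.0937 with pan-neuronal scaling). Rsph4a, its neighbour in the spoke head, had 11.1, 10.1 and 12.6 CPM in IP and 9.52, 8.46 and 5.16 CPM in unbound libraries, at 0.54 ± 0.25, which did not pass (edgeR adjusted p = 0.106). Rsph1, also of the spoke head, had 6.89, 5.14 and 7.67 CPM in IP and 8.77, 8.75 and 4.51 CPM in unbound libraries, so the groups overlapped (-0.16 ± 0.30). The other 5 lay between -2.32 for Rsph10b and 0.85 for Rsph6a. Rsph3a and Rsph3b share 58.1% and 69.2% of their windows with other transcripts, so reads can be lost between them.

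The central pair genes were lower or not called. Spag6, a central pair protein gene, had 7.15, 7.26 and 6.22 CPM in IP and 8.19, 8.80 and 5.80 CPM in unbound libraries, with overlap between groups (-0.14 ± 0.22). Spag16 had 0.261, 0.643 and 0.200 CPM in IP against 5.34, 2.21 and 1.34 CPM in unbound libraries. Unbound libraries varied widely among themselves but all lay above IP, at -3.04 ± 0.67 (edgeR adjusted p = 0.00644). Hydin, a central pair projection gene whose loss causes hydrocephalus in mice, had 1.28, 0.803 and 1.13 CPM in IP and 3.28, 2.06 and 2.85 CPM in unbound libraries, at -1.34 ± 0.37 (edgeR adjusted p = 0.0171). Spag17 also fell, at -1.87 ± 0.56 (edgeR adjusted p = 0.0245), though of the fits that left out 1 library it passed only in that without IP replicate 3.

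Ccdc39 and Ccdc40 act as one ruler along the doublet, and their RNAs went opposite ways. Ccdc40 had 9.79, 9.54 and 10.6 CPM in IP against 6.82, 3.31 and 4.68 CPM in unbound libraries, at 1.02 ± 0.27 (edgeR adjusted p = 0.0151; 0.202 with pan-neuronal scaling). Ccdc39 had 7.39, 7.90 and 6.64 CPM in IP against 12.6, 10.8 and 9.47 CPM in unbound libraries, at -0.59 ± 0.19 (edgeR adjusted p = 0.0347). Neither pair of groups overlapped. The fall of Ccdc39 did not pass in 5 of the 6 fits that left out 1 library, all but that without unbound replicate 3, and 16.9% of its exon bases overlap Ttc14 on the opposite strand. Of the members that are docking genes for outer arms, Ccdc114 was lower at -1.85 ± 0.53 (edgeR adjusted p = 0.0201), and Ccdc151 was not called, at 0.04 ± 0.34.

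Ccdc153, an ependymal marker, had 0.190, 0.161 and 0.555 CPM in IP and 5.46, 5.06 and 2.95 CPM in unbound libraries. The lowest unbound library was far above the highest IP library, at -3.84 ± 0.54 (edgeR adjusted p = 0.000850). Ccdc113, a gene for a ciliary protein, had 2.90, 5.30 and 3.02 CPM in IP and 5.14, 3.63 and 2.35 CPM in unbound libraries, with overlap and a log2 fold change of 0.01 ± 0.37.

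**Figure D2:**
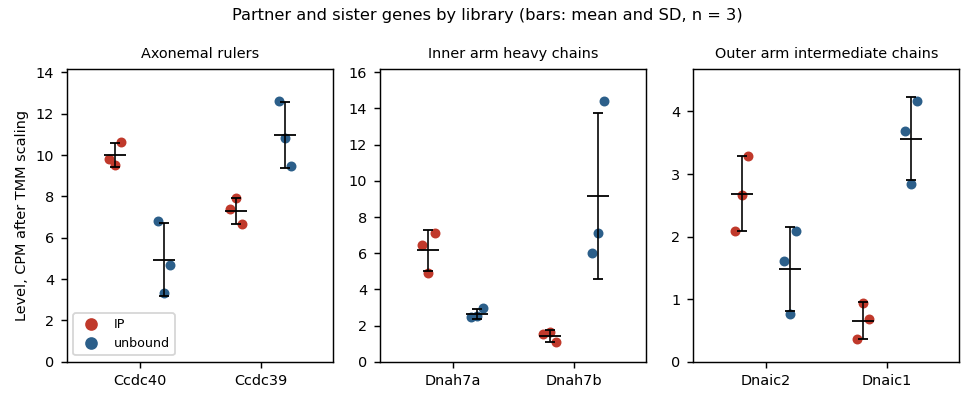
Level in each library (CPM after TMM scaling, linear axis from 0) of Ccdc40 and Ccdc39, Dnah7a and Dnah7b, and Dnaic2 and Dnaic1. Points are libraries and bars the mean and SD of 3. Ccdc40 averaged 9.99 ± 0.58 CPM in IP and 4.93 ± 1.77 CPM in unbound libraries, and Ccdc39 7.31 ± 0.63 CPM in IP and 11 ± 1.58 CPM in unbound libraries. These pairs were chosen after their values were seen, and the difference within a pair was not tested.

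Tektins are rod-like proteins inside the doublet microtubules. Tekt5, known from sperm tails, was the most abundant of all 42 genes per kilobase of exon in both groups, at 21.3 CPM per kb in IP and 9.39 CPM per kb in unbound RNA. It lies on the minus strand of chromosome 16 from 10357948 to 10395490 (GRCm38, GENCODE M21), and none of its exon bases overlaps another annotated gene. Tekt5 had 43.2, 35.0 and 37.1 CPM in IP against 13.2, 12.6 and 25.1 CPM in unbound libraries. All IP libraries were above all unbound libraries, although unbound replicate 3 was 1.95 times the mean of the other two, and the log2 fold change was 1.18 ± 0.27 (edgeR adjusted p = 0.00758). Tekt2 had 7.34, 3.57 and 6.84 CPM in IP and 4.08, 2.29 and 3.14 CPM in unbound libraries, at 0.90 ± 0.34, which did not pass (edgeR adjusted p = 0.0606), and 20.8% of its exon bases overlap the transcript Gm12945. Tekt1 had 1.54, 1.28 and 1.33 CPM in IP and 2.40, 1.63 and 0.815 CPM in unbound libraries, with overlap (-0.22 ± 0.45). Tekt4 was not called, at -1.86 ± 0.76, and Tekt3 had 2, 2 and 0 counts in IP and 0, 4 and 0 counts in unbound RNA.

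**Figure D3:**
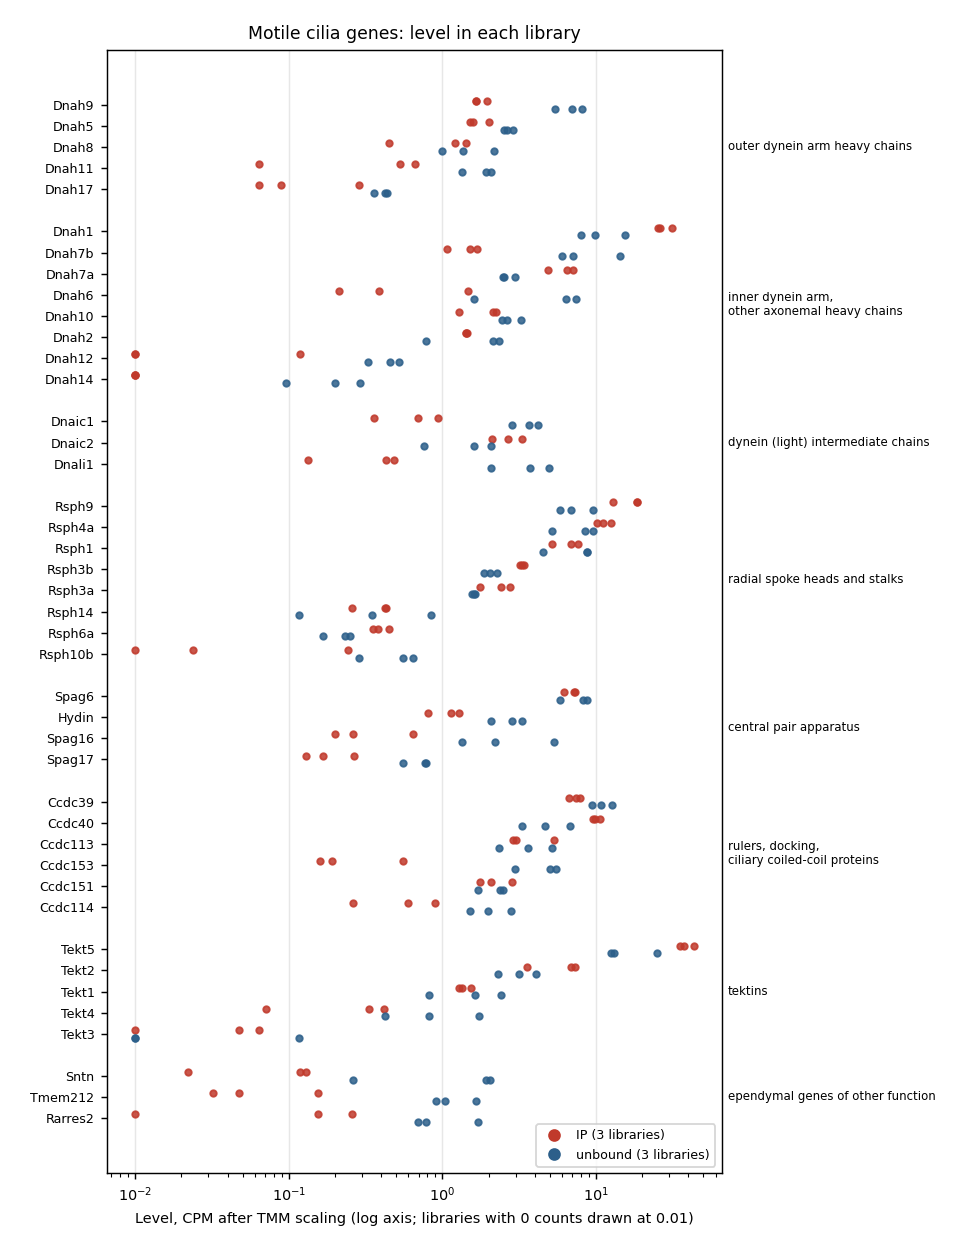
Level of all 42 motile cilia genes in each library (CPM after TMM scaling, log axis; libraries at 0 counts are drawn at 0.01), by role. Each point is 1 of 3 IP or 3 unbound libraries. The 5 genes that rose all averaged above 5 CPM in IP, and Sntn, Tmem212 and Rarres2 reached at most 0.257 CPM in an IP library.

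Summed over all 42 genes, the level was 173, 159 and 172 CPM in IP and 170, 143 and 140 CPM in unbound libraries, so the ranges overlapped although more members fell than rose. By mean CPM in IP, the genes that rose were among the abundant ones. Tekt5 alone made up 25.0%, 22.0% and 21.6% of the sum in IP. At 1 CPM or more stood 23, 21 and 24 members in IP and 33, 29 and 30 in unbound RNA. Per kilobase of exon, the next highest after Tekt5 in IP were Rsph9 at 10.4 and Rsph1 at 4.79 CPM per kb. In unbound RNA they were Rsph1 at 5.35 and Rsph9 at 4.62 CPM per kb. By that measure Dnah7a, which rose, ranked only 16 of the 42 in IP and 28 in unbound RNA. By role, tektins summed to 46.1 ± 5.93 CPM in IP and 22.8 ± 7.08 CPM in unbound libraries, and the central pair genes to 8.51 ± 0.59 CPM in IP and 14.0 ± 3.30 CPM in unbound libraries (n = 3 each).

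Other motile cilium genes, outside the 42, were also called in both directions. Of 38 such genes, 7 fell (18.4%) and 4 rose (10.5%), against 23.2% and 21.1% of all genes, with a median of -0.53. The number that fell was 4 without IP replicate 1, unbound replicate 1 or unbound replicate 2, and 11 without unbound replicate 3. Among the falls were Spef2, a central pair gene (0.356, 0.418 and 0.400 CPM in IP against 2.93, 2.47 and 2.49 CPM in unbound libraries), and Dynlrb2, a dynein light chain gene of ciliated cells, at -2.74 ± 0.45 (edgeR adjusted p = 0.00178). Ccdc65, of the nexin-dynein regulatory complex, was higher, at 18.6, 15.3 and 15 CPM in IP against 8.24, 8.60 and 9.64 CPM in unbound libraries (edgeR adjusted p = 0.00386), as were Dydc2, Fam183b and Tppp3. None of these 4 passed with pan-neuronal scaling, under which 14 of the 38 fell. Of 12 genes for the assembly or docking of dynein arms, Armc4, a docking gene, and Dnaaf5 fell (16.7%) and the other 10 were not called. Without unbound replicate 1 there was 1 fall. Of 13 genes of cytoplasmic dynein and dynactin, which neurons use for transport along axons, 7 rose (53.9%) and the other 6 were not called (median 0.42). Of 32 genes of primary cilia and intraflagellar transport, 6 rose (18.8%) and 3 fell (9.38%), with a median of 0.05 and 1 fall without unbound replicate 2. With pan-neuronal scaling 1 rose and 3 fell among the cytoplasmic dynein genes, and 1 rose and 14 fell among those of primary cilia.

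**Figure D4:**
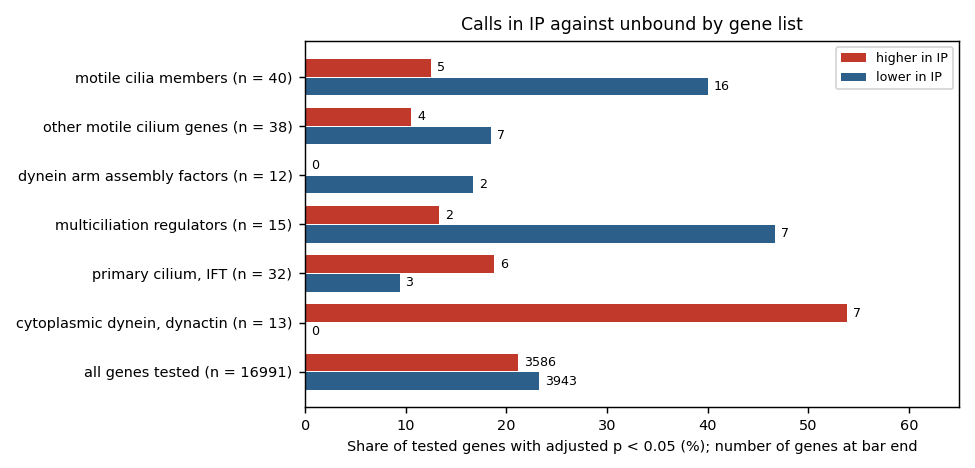
Share of tested genes higher or lower in IP at an adjusted p under 0.05 (percent, axis from 0), for the motile cilia genes, 5 related lists and all 16991 tested genes, with the number of genes at each bar. Among motile cilia genes 5 were higher and 16 lower, and among cytoplasmic dynein and dynactin genes 7 were higher.

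Markers of other cells moved in both directions, while of all genes tested 23.2% were lower and 21.1% higher. Pan-neuronal markers were higher for 12 of 20 and lower for 1 (Map2), and their summed level was 21100 to 22560 CPM in IP and 14270 to 15910 CPM in unbound libraries. Lower in IP were 11 of 13 astrocyte markers (816 to 1310 CPM summed in IP, 2525 to 2766 in unbound RNA), 10 of 10 oligodendrocyte markers (344 to 575 CPM in IP, 3658 to 7027 in unbound RNA) and 9 of 10 microglia markers (10.7 to 28.9 CPM in IP, 84.8 to 133 in unbound RNA). Of tanycyte markers 5 of 11 were lower (66.1 to 109 CPM summed in IP, 140 to 236 in unbound RNA), and of choroid plexus markers 4 of 10. The last count rests on single libraries: it was 1 without IP replicate 3, 2 without unbound replicate 1 or 2 and 11 of 11 without unbound replicate 3, where 1 more marker was tested, and no choroid plexus marker passed without IP replicate 1. The other tested markers of these 5 lists were not called. The part of all these cells in the falls and rises of the motile cilia genes was not tested.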

How the data were processed

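RNA-seq libraries of immunopurified (3) and unbound (3) RNA were grouped by sample type in the labels. The authors deposited raw counts of reads for each gene, 1 file per library. Per the submitters' processing notes, the authors aligned reads to mm10 with STAR 2.0.0e and counted them with HTSeq. Which annotation, strand setting and overlap rule they used is not given in the sources used here. Summary entries stayed out of library sizes. Reads ambiguous between genes were 1.58% to 1.64% of all deposited counts, summary entries included, in IP and 7.08% to 9.02% in unbound libraries. Neither these nor reads with several alignments are in the gene counts.

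The test was edgeR 4.0.16 under R 4.3.3, with TMM scaling, the filterByExpr minimum count of 10 and total of 15, a robust quasi-likelihood fit with group as its one term, and Benjamini-Hochberg adjusted p-values over 16991 genes, called under 0.05. A standard error is the size of the log2 fold change over the root of its F statistic. Alternatives (17 fits) were other scalings and count filters, DESeq2 1.42.0, limma-voom (limma 3.58.1), the replicate block, lane 2 alone, fits without 1 library, without the third pair, and without 3 features that take many reads (Rn45s, Mir6236, Lars2). The fit was tested on simulated data. Same-numbered IP and unbound libraries deviated together from their group means over genes (correlations of 0.14, 0.16 and 0.21). By a threshold of 0.1 the numbers were taken as pairs. The main fit has no term for pairs, and only the replicate block takes them into account. The pairing comes from this check, not from a label. Replicate 2 of both groups ran in lane 4, the other libraries in lane 2. For replicate 2 a shared lane and a pair thus cannot be told apart.

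The members and lists were chosen with earlier results of these data known, and counts over them are descriptions. Values per library are given for the 3 most abundant members of each role, members higher in IP and members that went against their role. Dnah6, Dnah11, Dnah12, Dnah14, Ccdc153, Tekt3, Spef2 and others named in passing were chosen after their values were seen. A gene that the rule takes from another list is not reported here. Exon lengths, positions and overlaps come from GENCODE M21 (GRCm38), where all 42 members were matched by symbol.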

Additional observations from a re-analysis of the deposited data

How the results depend on the processing

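Depth limits the low genes: Dnah12, Rarres2, Sntn and Tmem212 had 5, 15, 10 and 10 counts over the IP libraries. A filter of 1 CPM in 3 libraries left 30 members, with a median of -0.29. Of these, 11 were lower and 5 higher (36.7% and 16.7%, against 23.1% and 23.2% of all genes). For all 21 called members every IP library lay on one side of every unbound library. Their direction in both lanes and in each same-numbered pair was thereby fixed, and adds no support. Lane 2 alone (2 libraries a side) gave 7 lower and 2 higher members (17.5% and 5% of those tested, against 14.7% and 7.49% of all genes). Among all genes 2538 were lower and 1297 higher, and 17 were higher in the other lists. Lane 4 has 1 library a side and no test.

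Ccdc153, Dnah7a, Dnah7b, Dnah9, Dnaic1, Dnali1 and Spag16 passed in all 17 alternatives. Leaving out 1 library gave 8 to 15 lower members and medians of -0.72 to -0.57. The median was -0.68 with library size alone and -1.10 with pan-neuronal scaling. That scaling gave 20 lower and 2 higher members (50% and 5%), against 6946 and 853 of all genes (40.9% and 5.02%). In the other lists it gave 9 higher. The replicate block gave 13 lower and 6 higher members, and changed no other call among them than those given above.

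Signs were followed for called members and for genes named by rule, mainly the most abundant of each role or list. Other genes were not followed through the fits: Ccdc151, for instance, went to -0.49 with pan-neuronal scaling, and Rsph14 to 0.03 with the replicate block. Among the genes followed, only genes that were not called changed sign. Ccdc113 (-0.03) and Syt1 (-0.02) did so with RLE scaling. Ccdc113 (-0.09) and Syt1 (-0.08) did so with library size alone. Ccdc113 (-0.55), Col25a1 (-0.14), Dnaaf2 (-0.09), Efcab1 (-0.07), Kif3a (-0.33), Kifap3 (-0.33) and Syt1 (-0.53) did so with pan-neuronal scaling. Ccdc113 (-0.04) and Syt1 (-0.03) did so with a filter of 1 CPM in 3 libraries. Ccdc113 (-0.03) and Syt1 (-0.02) did so with DESeq2. Ccdc113 (-0.01) and Spag1 (0.09) did so with limma-voom. Ccdc113 (-0.33), Rsph1 (0.14) and Tfdp1 (0.03) did so in the lane 2 libraries alone. Ccdc113 (-0.13), Atp1b2 (0.28), Dync1li2 (0.01), Spag1 (0.38) and Syt1 (-0.07) did so without the third pair. Dync1li2 (0.00) and Spag1 (0.06) did so with no count filter. Spag1 (0.09) did so with the replicate block. Leaving out 1 library in turn gave a range across 0 for Atp1b2 (-0.22 to 0.14), Ccdc113 (-0.31 to 0.34), Dync1li2 (-0.09 to 0.05), Rsph1 (-0.41 to 0.01), Spag1 (-0.18 to 0.47), Syt1 (-0.29 to 0.31), Tekt1 (-0.54 to 0.21), Tfdp1 (-0.15 to 0.01).
The causes of these changes were not tested.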

Other observations

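Outside the 42 genes, 10 of 14270 candidate genes with a mean of at least 1 CPM had the pattern most like the mean of the members' standardised log2 CPM. Among the 8 of these that have a symbol were Scp2 (Pearson r = 0.983 over 6 libraries), Cwc22 (0.980), Snhg6 (0.979), Cfap61 (0.977), Grk5 (0.974), Arglu1 (0.966), Usp3 (0.963) and Gm4980 (0.962). They were picked for their likeness among many genes, and the libraries share depth and group, so the values describe only these 6 libraries. Cfap61, a radial spoke gene, had 1.24, 1.22 and 1.58 CPM in IP and 4.31, 2.21 and 1.70 CPM in unbound libraries, with unbound replicate 1 the highest.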
